A study of Mus musculus with 7 samples.

Results

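Natural CD8αα αβ intraepithelial lymphocytes (IELs) were examined in the small intestine of young and old mice. These are T cells of the gut epithelium that carry an αβ T cell receptor (TCR) and the CD8αα homodimer without CD4 or CD8β. They were chosen by a rule on measured values: a barcode had to hold a productive TCR β chain (TRB) contig, at least 1 unique molecular identifier (UMI, a count of 1 captured RNA molecule) of Cd8a and at least 1 of Fcer1g, and no UMI of Cd4, Cd8b1 or Trdc, the constant region of the TCR δ chain. The rule selected 646 of 4348 cells of young IEL and 966 of 5811 cells of old IEL, 1612 of 10159 IEL barcodes together and of 21365 barcodes in the whole series. No barcode was shared between pools.

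The data were single-cell 5′ RNA counts with matched TCR sequences from C57BL/6 male mice of 6 weeks (young IEL and young spleen, SP) and 80 weeks (old IEL and old SP), all without genetic change or treatment. Per the labels, cells of 3 mice per age were pooled, and the sources do not give the number of young mice alike throughout. Each group was 1 pool, and the mice could not be separated. CD45+ cells were enriched on beads and sorted as CD3+ cells, and both IEL pools were made 1:1 from sorted CD3+ and sorted CD3+CD4+ cells. The sort therefore partly fixed how frequent any CD4- cell was among all IELs. No test between ages was possible: levels are given with exact Poisson and shares with exact Clopper-Pearson 95% intervals, which cover counting error only and not the spread between mice. The young IEL pool held 32248487 UMIs and the old IEL pool 33314700, with 4693242 and 5686629 in the natural IELs. The median natural IEL had 6835.5 UMIs in the young pool and 5722 in the old.

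Natural IELs are known to be selected on self ligands in the thymus and to settle in the epithelium early in life, whereas induced CD8αβ IELs come from conventional T cells activated in the periphery. Natural IELs lack CD5 and CD6, which dampen TCR signals, and use adaptor proteins shared with natural killer (NK) cells. The FcRγ chain, encoded by Fcer1g (chr1:171229572-171234365, minus strand, mm10), and DAP12, encoded by Tyrobp (chr7:30413760-30417585, plus strand), carry activation motifs that couple receptors to kinases. Helios, the transcription factor encoded by Ikzf2 (chr1:69531214-69687245, minus strand), marks T cells selected on self ligands. Members of the Ly49 family, encoded by the Klra genes on chromosome 6, bind class I MHC, and most of them are inhibitory.

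Natural IELs made up 14.9% of all young IEL barcodes (95% interval 13.8 to 16.0) and 16.6% of old (15.7 to 17.6). Among barcodes with TRB and no Cd4 UMI, a denominator less touched by the sort, they were 44.0% of 1469 in the young pool (41.4 to 46.6) and 56.9% of 1697 in the old (54.5 to 59.3). With clonotypes that also held Cd4 cells, as defined below, left out of both counts, they were 550 of 1238 (44.4%, 41.6 to 47.3) and 678 of 1084 (62.5%, 59.6 to 65.4). In the spleen the same rule found 25 of 5668 young barcodes (0.441%) and 19 of 5538 old (0.343%). The intestinal share was therefore higher in the old pool on the denominator without Cd4, with or without those clonotypes. The spleen held almost none at either age. The intervals did not overlap, but they count every cell as separate. The largest clonotype held 250 of the 966 old members, and the largest outside the Cd4 clonotypes 150 of the 678. Leaving out those clonotypes could not remove a CD4 cell whose Cd4 went unsampled and that was alone in its clonotype.

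The cells lay far from some edges of the rule and near to others. Members held a median of 20 Fcer1g UMIs in the young pool and 17 in the old, and 2 and 4 members held exactly 1. The cells that met every other condition with 0 Fcer1g UMIs numbered 68 and 180. For Cd8a the median member held 14 and 13 UMIs, 12 and 4 members held exactly 1, and 22 and 4 cells were left out for holding 0. The Cd4 edge was the crowded one: 107 young and 294 old cells were left out for exactly 1 Cd4 UMI, and 87 and 291 for more than 1. Cd8b1 removed 40 cells with exactly 1 UMI and 29 with more in the young pool, and 27 and 25 in the old.

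**Figure D1:**
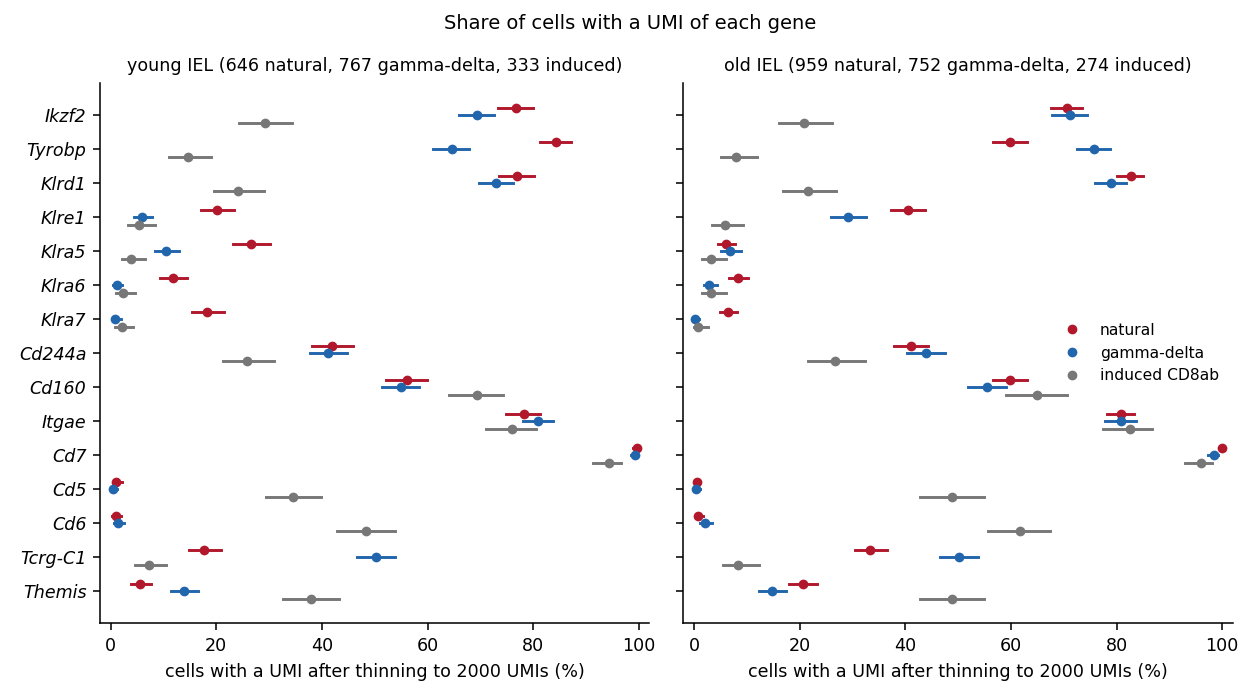
Share of cells with at least 1 UMI (percent, after thinning cells to 2000 UMIs and leaving out cells with fewer) for marker genes in natural, γδ and induced CD8αβ IELs of each age, with exact 95% binomial intervals of counting error. Ikzf2 was found in 76.8% of young and 70.6% of old natural IELs, against 29.1% and 20.8% of induced IELs.

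The label was checked on markers that the rule did not use, in cells thinned to 2000 UMIs so that depth was equal. Cells with fewer than 2000 UMIs, 0 young and 7 old members, were left out of the thinned shares. The comparison sets were γδ IELs (767 young and 754 old cells with no TRB or TCR α chain, TRA, contig, at least 1 UMI each of Trdc, Cd8a and Fcer1g, and none of Cd4 or Cd8b1) and induced CD8αβ IELs (333 and 275 cells with TRB, Cd8a and Cd8b1 and without Cd4 or Trdc). Ikzf2 was found in 76.8% of young natural IELs, 69.4% of γδ IELs and 29.1% of induced IELs, and in the old pool in 70.6%, 71.1% and 20.8%. Tyrobp was found in 84.4%, 64.5% and 14.7% of the same young sets and in 59.9%, 75.8% and 8.03% of the old. In spleen cells with TRB, Cd4 and Ccr7 and without Cd8a, which should lack Tyrobp, the share was 0.716% in the young pool and 0.466% in the old. Both named markers were therefore more frequent in natural than in induced IELs at both ages. Against γδ IELs both were more frequent in the young pool. In the old pool Tyrobp was less frequent than in γδ IELs, and Ikzf2 was close. Trac, the TCR α constant region, did not separate the sets, with a UMI in 56.2% of young natural and 53.5% of young γδ IELs and in 66.6% and 70.9% of the old, so the γδ set rested on the absence of contigs and on Trdc.

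Cd5, the inhibitory receptor of conventional T cells, was found in 1.08% of young natural IELs against 34.5% of induced IELs, and in 0.521% against 48.9% in the old pool. Cd6, its relative, was found in 0.929% against 48.4% and in 0.834% against 61.7%. The natural IELs and the γδ IELs both had these genes at or near the level of absence, with Cd5 in 0.391% and Cd6 in 1.43% of young γδ IELs.

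The productive TRB contig by itself separated αβ from γδ cells less well than the pair of chains did. Among young cells that met the rest of the rule, whatever their Trdc count, 22 of 586 with both TRB and TRA had a Trdc UMI (3.75%), against 98 of 180 with TRB only (54.4%) and 767 of 949 with neither chain (80.8%). In the old pool the values were 28 of 876 (3.20%), 78 of 196 (39.8%) and 754 of 1135 (66.4%). Natural IELs without a TRA contig numbered 82 of 646 in the young pool and 118 of 966 in the old, and 564 and 848 held both chains. More than 1 TRB contig was found in 38 young and 9 old members, and 5 and 2 members held over 20000 UMIs, the 2 signs of doublets available here.

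The TCR repertoires differed in size between the pools. A clonotype was taken as all cells of a pool with the same TRB V and J genes and the same bases of the TRB complementarity-determining region 3 (CDR3), read from the contig with the most UMIs in each cell. The 646 young natural IELs fell into 437 clonotypes, of which 337 held 1 member, and the largest held 23 members (3.56%). The 966 old natural IELs fell into 257 clonotypes, of which 173 held 1 member, and the largest held 250 (25.9%). That largest clonotype also held 485 cells with a Cd4 UMI. Its 250 members met the rule but were not shown to lack CD4, and values without such clonotypes are given below. Drawn down to 646 cells, the old members held 194.7 clonotypes on average over 100 draws. The inverse Simpson index, the number of equally large clonotypes that would give the same chance of drawing a pair alike, was 218.3 in the young pool and 10.45 in the old, or 73.99 in the old without its 2 largest clonotypes. With several mice in 1 pool per age, whether a clonotype came from 1 mouse could not be told.

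The CDR3 sequences of the leading clonotypes are shown because the old values depended on a few of them. They are written 5′ to 3′ as deposited, and capitals mark bases that matched neither the germline V gene read from the 5′ end nor the germline J gene read from the 3′ end (GENCODE M21 transcripts, mm10), so that they hold the D segment and added bases. The TRB locus lies on chromosome 6 (Trbv13-1 at chr6:41116007-41116468, Trbv19 at chr6:41178375-41179048, Trbj1-4 at chr6:41534811-41534861, all plus strand), and the TRA locus on chromosome 14.
old clonotype 1, TRB (TRBV13-1, TRBJ2-3): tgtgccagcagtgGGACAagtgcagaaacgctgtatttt
old clonotype 1, TRA (TRAV5-1, TRAJ26): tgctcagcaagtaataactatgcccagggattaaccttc
old clonotype 2, TRB (TRBV19, TRBJ2-5): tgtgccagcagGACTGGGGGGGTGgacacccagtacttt
old clonotype 3, TRB (TRBV16, TRBJ1-3): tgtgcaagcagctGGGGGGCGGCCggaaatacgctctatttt
old clonotype 5, TRB (TRBV2, TRBJ2-3): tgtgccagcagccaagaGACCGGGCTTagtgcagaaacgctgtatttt
young clonotype 1, TRB (TRBV16, TRBJ2-3): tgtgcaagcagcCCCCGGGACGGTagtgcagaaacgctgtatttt

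Old clonotype 1 held 747 cells with this TRB chain, of which 250 were members and 485 had a Cd4 UMI (64.9%, 61.4 to 68.4). Old clonotype 2 held 155 cells, of which 150 were members and 2 had a Cd4 UMI (1.29%). By the TRA contig with most UMIs, 94 of its 151 cells with TRA shared 1 chain. In old clonotype 1 this was 673 of 675 cells, and in old clonotype 4 it was 15 of 27. Whether the other cells were separate clones or held a further TRA chain was not tested. Old clonotypes 3 and 4 had 32 of 33 and 25 of 28 cells as members and none with Cd4, and old clonotype 5 had 21 of 80, with 58 Cd4 cells (72.5%). The leading old clonotypes thus fell into those with Cd4 in most cells and those with Cd4 in almost none. In the young pool, clonotype 1 had 23 of 24 cells as members and no Cd4 cell, while clonotype 2 had 9 of 25 as members with 16 Cd4 cells and clonotype 4 had 8 of 29 with 19.

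Inside old clonotype 1 the members could be set against the Cd4 cells of the same TCR. The Cd4 UMI count of those 485 cells had a median of 1, and 256 of them held exactly 1, so absence of a Cd4 UMI in the other cells did not show absence of CD4. Of 6378 genes measured, 0 were higher and 1, Cd4 itself, was lower by 2-fold or more with separate intervals in the 250 members. Fcer1g stood at 36.7 UMIs per 10000 in members and 36.7 in Cd4 cells, Ikzf2 at 6.93 and 7.42, and Zbtb7b, the CD4 lineage factor ThPOK, at 0.0538 and 0.0747. Apart from Cd4 itself, at 0 by the rule against 3.10, no measured gene separated these members from the Cd4 cells of their clonotype at this fold.

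Clonotypes of at least 2 TRB cells in which at least 20% had a Cd4 UMI are called Cd4 clonotypes here. They held 96 of the 646 young members (14.9%) in 41 clonotypes and 288 of the 966 old members (29.8%) in 12. Without them, 550 young and 678 old natural IELs remained, with inverse Simpson indices of 196.4 and 17.45, and differences between ages are given on these cells below where leaving the Cd4 clonotypes out ended a call. Old clonotype 10 was the reverse case: it had no TRA, and 16 of its 27 cells held Trdc, with 11 members.

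**Figure D2:**
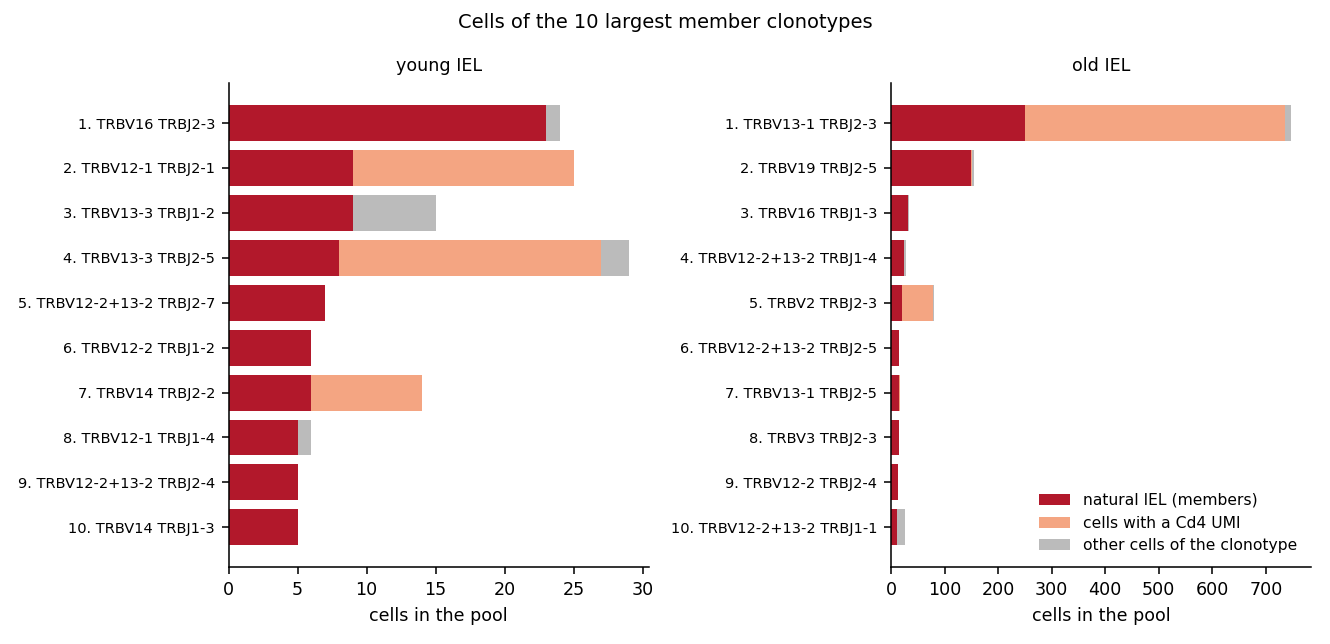
Cells of the largest clonotypes of natural IELs in each pool, split by whether they were members, had a Cd4 UMI or neither (x axis, number of cells; y axis, clonotype by number of members). Old clonotype 1 held 250 members and 485 Cd4 cells, and old clonotype 2 held 150 members of 155 cells.

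Compared with induced CD8αβ IELs, natural IELs showed higher levels of many NK receptor and natural IEL programme genes and lower levels of Cd5, Cd6, Lat and Il7r. Levels are UMIs per 10000 UMIs summed over the cells of a set, ratios are log2 after adding 0.1, a gene counted as measured when the mean level of both sets was at least 0.2, and it is called higher or lower when the ratio reached 2-fold and the intervals did not overlap. Of 6185 genes measured in the young pool, 125 were higher (2.02%) and 77 lower (1.24%) in natural IELs, and of 6332 in the old pool 136 (2.15%) and 83 (1.31%). The rule used Fcer1g, Cd8b1 and Cd4 themselves, so nothing is read from those.

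Of the 23 genes of a natural IEL programme list, 14 were higher in the young pool and 12 in the old, and none was lower, with medians of 1.35 and 1.07 on the log2 scale against 0.04 and 0.03 over all genes measured. Of the NK receptor genes, 11 of 20 measured were higher and 2 lower in the young pool, and 9 of 19 higher and 1 lower in the old. The NK receptor list shares some genes with the programme list. The rule required Fcer1g of members but not of induced IELs, of which 20.7% of young and 18.9% of old held it. Neither count was therefore independent of the rule. Klrd1, which encodes the CD94 partner of NKG2 receptors, stood at 9.58 against 2.85 in the young pool and 11.4 against 2.26 in the old, log2 ratios of 1.72 and 2.28. Klre1, an NK receptor of the same region (chr6:129577905-129585827, plus strand), had ratios of 2.17 and 2.50. Cd200r2, an activating relative of the CD200 receptor, had ratios of 2.50 and 1.75.

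Among 28 and 29 measured signalling genes, 8 were higher and 3 lower in the young pool and 10 higher and 4 lower in the old, counts that include Fcer1g, which the rule required in every member. Lyn, a Src family kinase typical of B and myeloid cells, had ratios of 1.90 and 2.20, and Clnk, an adaptor related to SLP-76, of 2.15 and 2.09. Lat, the adaptor at the centre of TCR signalling, was lower at −2.15 and −1.81. The signalling genes thus went in both directions. Cd5 was lower at −4.43 and −4.93 and Cd6 at −4.70 and −5.24.

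Il2rb, the β chain of the IL-2 and IL-15 receptors, was higher at 1.67 and 1.32, and Bcl2, an inhibitor of cell death, at 1.63 and 1.23. Il7r, the IL-7 receptor of memory T cells, was lower at −1.77 and −3.50. Entpd1 (CD39, an ecto-enzyme that degrades ATP) was higher at 1.65 and 1.67 and Tnfrsf9 (4-1BB, a costimulatory receptor) at 1.35 and 1.37, whereas Icos was lower at −1.44 and −2.10 and Cd226 at −1.53 and −2.78. Thy1 was lower at −2.87 and −4.03. Of the costimulatory and inhibitory receptor list, 3 of 16 measured genes were higher and 5 lower in the young pool, and 4 of 18 higher and 8 lower in the old, and of 21 cytokine receptor genes 2 were higher and 1 lower, and 1 higher and 2 lower. Of 13 cell cycle genes measured in the young pool, 0 were higher and 7 lower in natural IELs, and of 9 in the old pool 0 and 2.

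Granzyme genes were abundant in both sets and differed less. Gzma was at 422 in young and 423 in old natural IELs against 232 and 229 in induced IELs, and Gzmb at 96.7 and 76.8 against 71.3 and 56.0. Gzmk, a granzyme of memory T cells, was lower in natural IELs, at −1.92 and −1.11.

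Compared with γδ IELs, natural IELs differed in few genes. Of 6261 genes measured in the young pool, 21 were higher (0.335%) and 15 lower (0.24%), and of 6417 in the old pool 14 (0.218%) and 12 (0.187%). These counts include TCR segment genes, on which the sets were defined through their contigs and Trdc. The NK receptors stood out by count in the young pool, with 5 of 20 measured genes higher and 0 lower, and all other functional lists apart from the natural IEL programme, which holds some of the same genes, had at most 1 called gene.

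The 5 NK receptor genes were 4 Ly49 genes and Klre1. Klra7 (Ly49G, an inhibitory receptor; chr6:130218605-130233322, minus strand) was at 2.88 in young natural IELs (2.73 to 3.04) against 0.112 in young γδ IELs, and at 0.718 (0.649 to 0.791) against 0.0270 in the old pool, log2 ratios of 3.81 and 2.69. Klra6 (Ly49F) had ratios of 2.51 and 1.25. Klra1 (Ly49A) was at 0.739 against 0.0961 in the young pool, a ratio of 2.10, and fell under the measured level in the old pool. Klra5 (Ly49E; chr6:129898996-129917650, minus strand) was at 2.85 against 1.10, a ratio of 1.30, and in the old pool at 0.582 against 0.727, a ratio of −0.28. That order turned without the 2 largest old clonotypes, where Klra5 was at 0.964 and the ratio 0.36, and with 1 cell per clonotype, at 0.75. Klra7 and Klra6 were the Ly49 genes called higher than in γδ IELs at both ages. Ly49 genes are near-identical copies, and how the count software divided their shared reads was not resolved, so the split among them is uncertain.

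Klre1 was at 1.56 against 0.383 in the young pool, a ratio of 1.78, and at 3.10 against 2.06 in the old, a ratio of 0.57. Themis, a regulator of TCR signal strength in developing T cells (chr10:28668360-28883818, plus strand), was lower than in γδ IELs in the young pool, at 0.318 against 0.904, a ratio of −1.27, and not in the old pool, at 1.20 against 0.977, a ratio of 0.27 that turned to −0.09 without the 2 largest old clonotypes and to −0.49 with 1 cell per clonotype. Scin, an actin-severing protein, was lower at both ages, at 0.0874 against 0.568 and at 0.135 against 0.590. Zmat4, a zinc finger gene, was likewise lower, at 0.141 against 0.718 and at 0.199 against 1.33. Of 5 measured genes of a γδ T cell list, which holds Trdc, 3 were lower than in γδ IELs in the young pool and 2 in the old. Tcrg-C1 was at 1.04 against 3.81 in the young pool and 2.65 against 4.03 in the old, where the ratio was −0.59 and went to −1.74 without the Cd4 clonotypes.

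Cytotoxic, cytokine receptor, homing, transcription factor, senescence, interferon and metabolic lists had 0 genes past 2-fold in either direction against γδ IELs, at both ages. Gzma was at 422 and 403 in young natural and γδ IELs, Ccl5 at 478 and 487, Klrd1 at 9.58 and 9.68 and Ikzf2 at 8.05 and 7.06.

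**Figure D3:**
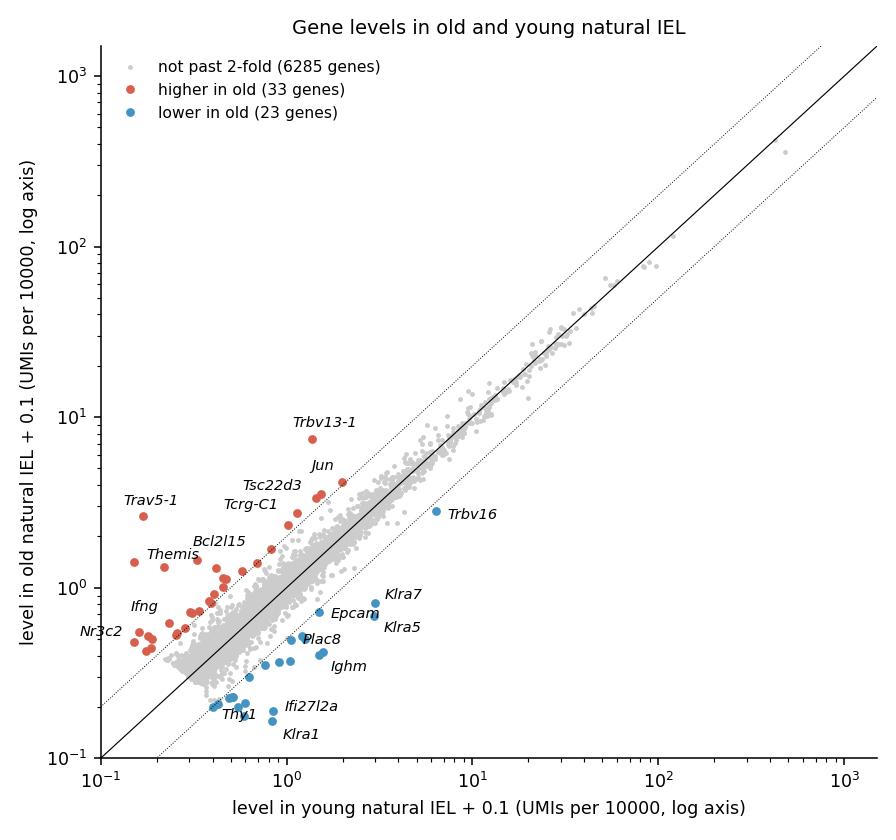
Level of each measured gene in old against young natural IELs (UMIs per 10000, both axes logarithmic), with genes past 2-fold and separate intervals coloured and those named in the text labelled. Klra1, Klra5 and Klra7 lay below the 2-fold line, and Themis, Bcl2l15 and Nr3c2 above it.

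Between old and young natural IELs, 3 NK receptor genes of the Ly49 family, Klra1, Klra5 and Klra7, were lower in the old pool, and Themis, Ifng, Jun, Tsc22d3, Nr3c2 and Bcl2l15 were among the genes that were higher. Of 6341 genes measured, 33 were higher in old (0.52%) and 23 lower (0.363%), and on cells outside the Cd4 clonotypes 23 of 6351 were higher (0.362%) and 16 lower (0.252%). With 1 cell per clonotype 19 were higher and 8 lower, of which 14 and 7 were among the 33 and 23, and with 0.5 added before log2 in place of 0.1 the counts were 9 and 7. These counts include TCR segment genes, which follow the large old clonotypes. In γδ IELs of the same pools, 20 of 6362 genes were higher (0.314%) and 13 lower (0.204%). Both cell types came from the same pool at each age, so their ratios are given side by side and share any difference between the libraries.

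Klra7 was at 2.88 in young natural IELs (2.73 to 3.04) and at 0.718 in old (0.649 to 0.791), a log2 ratio of −1.87, against −1.57 outside the Cd4 clonotypes and −0.74 in γδ IELs, where both levels were near 0. Klra5 was at 2.85 (2.70 to 3.01) and 0.582 (0.521 to 0.648), a ratio of −2.12, against −1.68 outside the Cd4 clonotypes and −0.53 in γδ IELs. Klra1 was at 0.739 (0.664 to 0.821) and 0.0651 (0.0458 to 0.0897), a ratio of −2.35. Of 21 measured NK receptor genes these were the 3 called lower, and 0 were called higher over all members. Klra6 was at 0.771 and 0.557, a ratio of −0.41 under 2-fold, and without the 2 largest old clonotypes it stood at 0.917 in old, a ratio of 0.22. With 1 cell taken per clonotype the Klra7 ratio was −2.40, the Klra1 ratio −2.21 and the Klra5 ratio −0.99, which no longer reached 2-fold.

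Klre1 went the other way, from 1.56 (1.45 to 1.68) to 3.10 (2.95 to 3.25), a ratio of 0.94. That ratio was 1.06, past 2-fold, without the 2 largest old clonotypes, 0.74 without the Cd4 clonotypes and 0.89 with 1 cell per clonotype. In γδ IELs Klre1 went from 0.383 to 2.06, a ratio of 2.16. Fcgr3, the low-affinity IgG receptor that pairs with FcRγ, was lower in old natural IELs, at 0.501 (0.439 to 0.569) and 0.111 (0.0851 to 0.142), with a ratio of −1.51 against −0.28 in γδ IELs. Tyrobp was at 19.8 (19.4 to 20.2) and 12.8 (12.5 to 13.1), a ratio of −0.63, whereas in γδ IELs it was at 13.6 and 21.7, a ratio of 0.67. Fcer1g, which the rule required, was at 28.6 and 30.8, and Ikzf2 at 8.05 and 7.25.

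Themis was at 0.318 in young natural IELs (0.269 to 0.373) and at 1.20 in old (1.11 to 1.29), a ratio of 1.63, against 1.58 outside the Cd4 clonotypes and 0.10 in γδ IELs, where it stood at 0.904 and 0.977. Induced IELs held 2.33 and 3.35. Themis was the 1 gene called of 27 measured signalling genes, and it was below the level of induced IELs in both pools. With 1 cell per clonotype its age ratio was 1.03, and in members that were the only TRB cell of their clonotype it was at 0.210 in young and 0.671 in old, below the γδ level of 0.977. The difference of the age ratio between natural and γδ IELs was not tested.

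Among 10 measured cytokine and chemokine genes, Ifng and Tnfsf8 were higher and none lower. Ifng, the main cytokine of cytotoxic T cells, was at 0.134 (0.103 to 0.172) and 0.524 (0.466 to 0.587), a ratio of 1.41, against 0.93 in γδ IELs. Tnfsf8, the CD30 ligand, was at 0.209 and 0.614, a ratio of 1.21, against 1.38 in γδ IELs. The chemokine genes Ccl4 and Xcl1 did not reach 2-fold. Both called cytokine genes had the same direction in natural and γδ IELs.

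Jun, an immediate early transcription factor, was at 1.89 (1.77 to 2.02) and 4.08 (3.92 to 4.25), a ratio of 1.07, and was the 1 called gene of 14 measured immediate early and heat shock genes, whose median was 0.32 against 0.02 over all genes. The median of the same list was 0.28 in γδ IELs, with 0 of 14 called, and 0.70 in induced IELs, with 4 of 16 called higher. Tsc22d3, which encodes GILZ and is induced by glucocorticoids, was at 1.34 (1.24 to 1.45) and 3.27 (3.12 to 3.42), a ratio of 1.22. Nr3c2, the mineralocorticoid receptor, was at 0.0511 (0.0328 to 0.0761) and 0.383 (0.334 to 0.438), a ratio of 1.68, against 1.86 in γδ IELs. Bcl2l15, a gene of the BCL2 family, was at 0.228 (0.187 to 0.276) and 1.36 (1.27 to 1.46), a ratio of 2.15, against 2.53 in γδ IELs. Jun, Tsc22d3, Nr3c2 and Bcl2l15 were higher at the old age in both cell types, with Jun and Tsc22d3 under 2-fold in γδ IELs at 0.70 and 0.86.

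Zeb2, a transcription factor of effector T cells, was at 0.358 and 1.04, a ratio of 1.31, and was the 1 called gene of 30 measured transcription factor genes. Outside the Cd4 clonotypes Rora was called as well, at a ratio of 1.01 against 0.76 over all members. Tgfbr3, a co-receptor for TGF-β, had a ratio of 1.25. With 1 cell per clonotype these ratios were 0.70 and 0.99, under 2-fold.

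Also lower in old natural IELs was Ifi27l2a, an interferon-induced gene, at 0.742 (0.666 to 0.824) and 0.0897 (0.0668 to 0.118), a ratio of −2.15 against −1.62 in γδ IELs. Ifi27l2a was the 1 called gene of 15 measured interferon response genes, whose median was 0.18. Epcam, an epithelial adhesion molecule, was at 1.39 and 0.623, a ratio of −1.04 against −0.19 in γδ IELs, and at −0.95 outside the Cd4 clonotypes. Thy1, at 0.392 and 0.127, and Plac8 had ratios of −1.12 and −1.10, and −0.95 and −0.74 outside the Cd4 clonotypes. The calls of Epcam, Thy1 and Plac8 were thus lost without those clonotypes, and with 1 cell per clonotype.

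Among the other lists, 0 of 17 measured gut homing and adhesion genes were higher and 2 lower in old. Of 11 measured costimulatory and inhibitory receptor genes, 0 were higher and 1 lower. Over all genes measured 0.363% were lower. Outside the Cd4 clonotypes 1 gene of the homing list and 0 of the receptor list were lower. None of 15 measured cytotoxic genes, 20 cytokine receptor genes, 11 senescence and survival genes, 8 cell cycle genes and 17 metabolic genes was called in either direction. Gzma was at 422 and 423, Gzmb at 96.7 and 76.8, Ccl5 at 478 and 360, Il2rb at 7.40 and 5.62 and Cd160, an NK receptor of IELs, at 5.51 and 6.06. Of the 23 natural IEL programme genes, 0 were higher and 2 lower in old, with a median of 0.01. Outside the Cd4 clonotypes these 2 counts were the same.

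**Figure D4:**
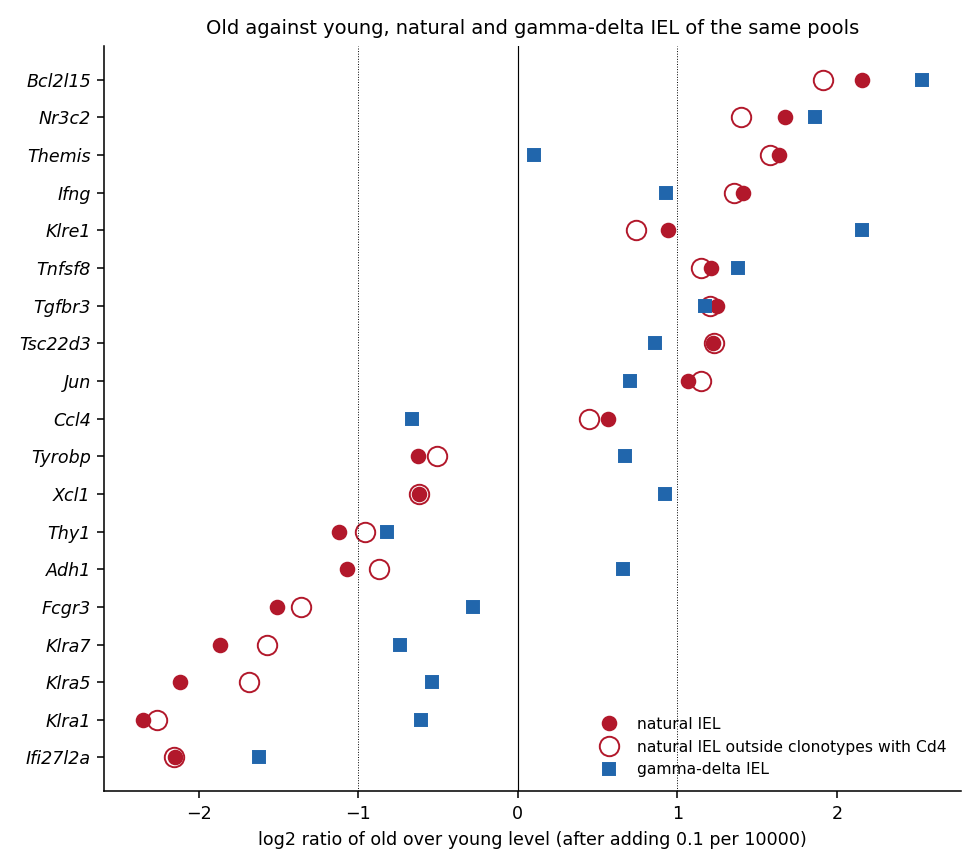
Log2 ratio of old over young levels for the named genes in natural IELs, in natural IELs outside the Cd4 clonotypes and in γδ IELs (x axis, log2 ratio with 0.1 added to both levels; y axis, gene). Themis was at 1.63 in natural IELs and 0.10 in γδ IELs, and Tyrobp at −0.63 and 0.67.

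Tcrg-C1, a TCR γ constant region gene, was at 1.04 (0.954 to 1.14) in young natural IELs and 2.65 (2.51 to 2.78) in old, a ratio of 1.26 that fell to 0.18 outside the Cd4 clonotypes, to 0.34 without the 2 largest old clonotypes and to 0.13 with 1 cell per clonotype. The pooled ratio therefore rested on the Cd4 clonotypes, of which old clonotype 1 is the largest.

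Within the old pool, the 288 members inside Cd4 clonotypes were set against the 678 outside. Of 6395 genes measured, 10 were higher (0.156%) and 28 lower (0.438%) inside. Klra7 was lower at −3.25, Klra6 at −2.68, Klra3 at −2.21 and Klra5 at −1.79, and Tcrg-C1 was higher at 2.47. Since 250 of the 288 cells belonged to 1 clonotype, these values describe mainly that clonotype.

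The Ly49 genes were found clonotype by clonotype. The shares in this and the next paragraphs count all UMIs of each cell, at a median depth that was higher in the young pool, and thinned values are given where they bear on them. Among the 27 old clonotypes with at least 5 members (657 cells), 22 had no Klra7 UMI in any member, 3 had Klra7 in at least 80% of members, and none lay between 20% and 80%. After thinning to 2000 UMIs 22 were at 0, 2 reached 80% and 1 lay between. Old clonotype 3, whose CDR3 is given above, had Klra7 in 30 of 32 members at a level of 9.23, clonotype 8 in 13 of 14 at 10.5, and clonotype 9 in 13 of 13 at 10.9. Klra7 was found in 1 of 250 members of old clonotype 1 and 0 of 150 of old clonotype 2. In the young pool, 10 of 11 such clonotypes (88 cells) had no Klra7 UMI, and clonotype 5 had it in 7 of 7 members at 14.8. Cells of 1 clonotype were therefore nearly alike in Klra7, and clonotypes of the same pool differed.

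Klra5 was at 0 in 22 of the 27 old clonotypes and in at least 80% of members in 2, clonotype 7 with 14 of 15 and clonotype 17 with 7 of 7. In the young pool 4 of 11 clonotypes held it in at least 80% of members and 3 had none. Klra1 was at 0 in 25 of 27 old clonotypes and in 8 of 9 members of clonotype 12, and Klra6 was at 0 in 14 and in at least 80% of members in 2, with 6 between. Klra6 was in 10 of 10 members of clonotype 11, and also in 68.8% of members of clonotype 3 and 53.8% of clonotype 9, which held Klra7, and in 72% of clonotype 4. Of 6 Ly49 genes, none was in over 20% of members in 14 of the 27 old clonotypes, 1 was in 9 and more than 1 in 4. Clonotypes thus differed in which Ly49 genes they held, and some held more than 1. Klra4 and Klra8, which encode the activating Ly49D and Ly49H, had a UMI in 0 of the 966 old members, and in 1 and 0 of the 646 young.

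Tyrobp also differed between clonotypes, with levels from 0.173 to 42.3 and a median of 10.1 over the 27 old clonotypes, and from 0.736 to 30.9 over the 11 young. Old clonotype 4 had a UMI in 4 of 25 members, clonotype 2 in 58 of 150 at a level of 2.81, and clonotype 11 stood at 42.3. In contrast Ikzf2 was present in at least 80% of members in all 27 old clonotypes, with levels from 4.06 to 9.92, and Klrd1 in all 27, from 6.48 to 22.2. After thinning, the lowest share of Ikzf2 in an old clonotype was 40% and of Klrd1 55.6%, against 0 for Klra7 and Tyrobp. Helios and CD94 transcripts were therefore found in every one of the 27 clonotypes, while Ly49 transcripts and, after thinning, DAP12 transcripts were not. Clonotypes with at least 5 members have few cells each, and a share of 0 in 5 members leaves room for a low one.

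**Figure D5:**
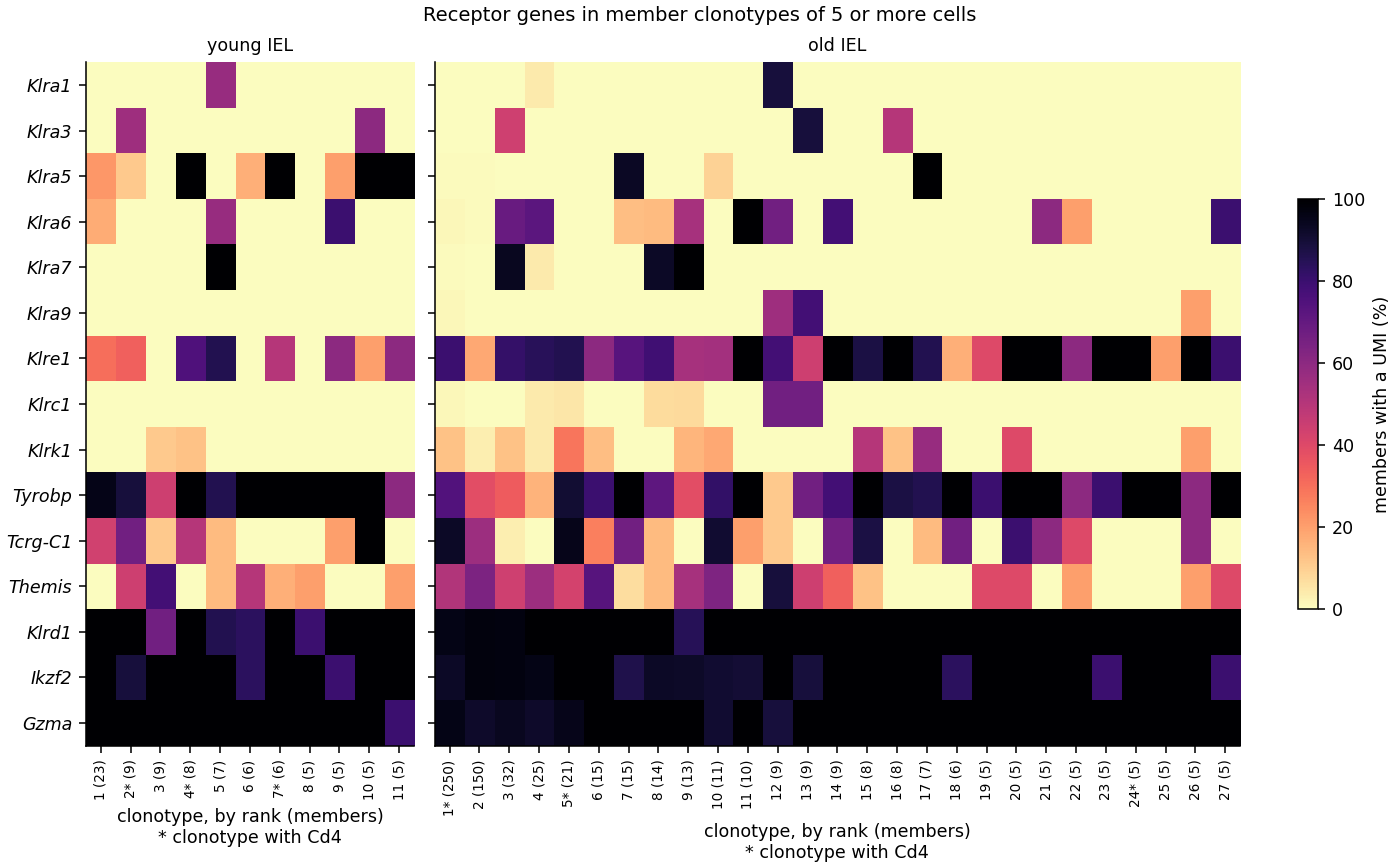
Percent of members with at least 1 UMI of each receptor gene in each clonotype of at least 5 members (rows, genes; columns, clonotypes ordered by size within each pool; all UMIs, not thinned). Klra7 was at 0 in 22 of 27 old clonotypes and in at least 80% of members in 3, whereas Ikzf2 was in at least 80% of members in all 27.

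Members that were the only TRB cell of their clonotype in the pool were taken alone, to set expansion aside. Among these 307 young and 158 old cells, Tyrobp was at 20.5 and 20.6, so that the lower pooled level in the old pool was not seen there. Without the 2 largest old clonotypes it was 17.3 in the remaining old members. Klra7 was at 3.75 and 0.630, present in 27.7% and 6.33% of these cells, or 23.5% (18.8 to 28.6) and 3.16% (1.03 to 7.23) after thinning to 2000 UMIs, and Klra5 at 2.65 and 1.504. The lower Klra7 level of the old pool was therefore present among cells found once, while the Tyrobp difference was not. Klre1 was at 1.45 and 2.42 and Tcrg-C1 at 1.04 and 1.12 in these cells.

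The V and J genes of natural IELs differed from those of CD4 cells of the same pools, counted over clonotypes so that each counted once. TRBV16 was used by 19.2% of 437 young clonotypes of natural IELs (15.6 to 23.2) and 12.5% of 257 old (8.68 to 17.1), by 16.9% and 11.3% of induced IEL clonotypes, and by 6.77% and 2.44% of clonotypes of cells with a Cd4 UMI. TRBV12-1 was used by 7.09% and 9.34% of natural IEL clonotypes, 7.18% and 0.870% of induced, and by 1.66% and 0.488% of clonotypes of cells with a Cd4 UMI. TRAV9D-3 was used by 9.56% and 8.47% of natural, 5.76% and 6.60% of induced and 3.45% and 2.03% of Cd4 cell clonotypes, counted by both chains. The median TRB CDR3 of natural IELs had 45 bases at both ages against 42 in induced and Cd4 cells, and every length was a multiple of 3.

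Natural IELs rarely shared clonotypes with the other pools. The young natural IELs shared 2 of 437 clonotypes with young spleen and the old 1 of 257 with old spleen. With Cd4 cells of the same pool, 43 young clonotypes (9.84%) and 18 old (7.00%) were shared, but these held 15.6% of young and 49.9% of old members. With induced IELs, 15 young clonotypes (3.43%) and 14 old (5.45%) were shared, which held 9.91% and 51.5% of members. With Trdc cells they were 15 (3.43%) and 19 (7.39%), which held 6.66% and 50.4%. For this count 1 such cell was enough, so old clonotype 2 was counted as shared with Cd4 cells through 2 of its 155 cells. The Cd4 clonotypes as defined above held fewer of the members, 14.9% in the young pool and 29.8% in the old. Cd8b1 was found in 5 of 747 cells of old clonotype 1 and 1 of 155 of old clonotype 2, and Trdc in 17 and 2. The member shares of the old pool thus mainly followed the size of its 2 largest clonotypes, which held 250 and 150 of the 966 members. No difference in sharing between the ages is read from them. Clonotypes of natural IELs found at both ages numbered 5, all with TRBJ1-4, and all 5 ended in the same 31 bases. They are shown because cells of different mice held them; capitals again mark bases outside the V and J matches, and for the fifth, with TRBV10, no germline V match was made.
TRBV12-1, TRBJ1-4: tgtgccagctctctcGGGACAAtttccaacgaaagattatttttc
TRBV19, TRBJ1-4: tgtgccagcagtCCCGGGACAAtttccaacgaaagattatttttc
TRBV1, TRBJ1-4: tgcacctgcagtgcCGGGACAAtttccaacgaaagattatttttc
TRBV5, TRBJ1-4: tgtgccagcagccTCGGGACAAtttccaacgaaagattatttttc
shared 3′ end: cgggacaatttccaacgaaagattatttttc

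These 5 clonotypes held 13 young and 8 old members, of which 11 and 8 had a TRA chain. The TRA chains numbered 9 in the young pool and 7 in the old, with 0 found at both ages, and none of the cells held a Trdc UMI. The shared element was thus the TRB junction and not the pair. Most of the capital bases in the sequences above matched a germline D segment. Outside the longest such match, 1 base remained in the TRBV12-1 clonotype, 4 in the TRBV19, 2 in the TRBV1 and 3 in the TRBV5 clonotype. The 31-base end was present in 23 of the 437 young natural IEL clonotypes (5.26%, 3.37 to 7.79) over 14 V genes and in 21 of the 257 old (8.17%, 5.13 to 12.2) over 13 V genes. It was present in 4 of 195 young (2.05%) and 2 of 115 old (1.74%) induced IEL clonotypes, and in 9 of 724 young (1.24%) and 4 of 205 old (1.95%) clonotypes of Cd4 cells. TRBJ1-4 as a whole was used by 18.3% and 24.5% of natural IEL clonotypes, 8.21% and 18.3% of induced, and 7.73% and 10.7% of Cd4 cells. The end was found after selecting the clonotypes seen at both ages, so its shares are a description.

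Of the 395 young and 224 old TRA chains of natural IELs, 4 were found at both ages, and 3 of those had no base outside the V and J matches. The most frequent is shown because it joined different TRB chains.
TRAV9D-3, TRAJ2: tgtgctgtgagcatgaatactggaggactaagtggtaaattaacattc
It was carried by 15 young members in 5 TRB clonotypes and by 22 old members in 2, old clonotype 5 among them, and by 39 young and 82 old cells in all, of which 20 and 59 had a Cd4 UMI.

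The marker lists of other cell types were summed in natural IELs. The summed level of a B cell list was 1.99 in the young pool and 0.809 in the old, led by Ighm at 1.40 and 0.301, with Cd79b at 0.496 and 0.227, and Cd79a and Ms4a1 had levels of 0 in the natural IELs of both pools. The epithelial list summed to 1.42 and 0.749, led by Epcam at 1.39 and 0.623. Both lists were lower in the old pool in the direction of the lower genes above, and in γδ IELs they were at 2.04 and 1.42 and at 1.16 and 1.06, and their part in the age differences was not tested. The myeloid list summed to 0.411 and 0.368, led by Ctss, the CD4 lineage list to 0.185 and 0.199, and the Th17 list to 0.00639 and 0.00703. The regulatory T cell list summed to 2.24 and 1.78, led by Tnfrsf18. The γδ list summed to 6.53 and 8.25 in natural IELs, led by Tcrg-C4 at 3.33 and 3.20, and to 15.8 and 15.6 in γδ IELs.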

How the data were processed

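The authors mapped the reads with Cell Ranger 7.0.1 (per the submitters' processing notes) to mm10 and deposited, for each of the 4 pools, UMI counts per gene and cell with filtered TCR contigs and a hashtag for each pool. The counts were used as deposited. Barcodes of the 2 IEL pools, with the spleen pools as background, entered by the rule on TRB contigs and UMI counts, with no further filter on cells and no clustering; doublets were not called, and cells with over 20000 UMIs or more than 1 TRB contig were counted. The members, the gene lists and the alternatives were chosen with earlier results of these data known.

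UMI counts were summed over the cells of a set and given per 10000, with 0.1 added before log2, a mean level of 0.2 as the minimum for a measured gene, and 2-fold with separate 95% intervals as the limit for a called gene. With 1 pool per group no test was run. Shares of cells with a UMI used cells thinned to 2000 UMIs, except those by clonotype, which used all UMIs with thinned values beside them. Intervals were exact Poisson (levels) or Clopper-Pearson (shares), and cover counting error only. Genes were named if they marked a cell type, were among the 4 most different called members of a list in each direction, or were among the 12 highest or lowest ratios outside TCR segment, mitochondrial, ribosomal and provisional genes; the Ly49 genes by clonotype and the CDR3 sequences shared between ages were chosen after their values were seen. Germline V and J genes came from GENCODE M21 (GRCm38, the assembly of mm10). The steps were tested on simulated data and run in Python 3.11.15 with numpy 2.4.6, pandas 2.3.3 and scipy 1.17.1. Alternatives were a larger added value, a higher minimum level, 1 cell per clonotype, a mean over cells, a required TRA contig, a single TRB contig, at least 2 Fcer1g UMIs, thinning to 1000 UMIs, and leaving out the Cd4 clonotypes or, added after seeing their size, the 2 largest old clonotypes. A gene withheld from the text is not reported here.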

Additional observations from a re-analysis of the deposited data

Results flagged for a closer look

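For 5 genes the ratio of old over young natural IELs and that of γδ IELs from the same pools had opposite signs, each beyond counting error. The difference between the ratios was not tested, since each age was 1 pool. Tyrobp was at −0.63 on the log2 scale in natural IELs and 0.67 in γδ IELs, and in members that were the only TRB cell of their clonotype it was at 20.5 UMIs per 10000 in young and 20.6 in old natural IELs. Xcl1, the chemokine lymphotactin, was at −0.62 and 0.92, from 4.16 to 2.67 in natural IELs and from 2.39 to 4.62 in γδ IELs, and in members that were the only TRB cell of their clonotype at 4.94 and 4.66. Ccl4, an inflammatory chemokine, was at 0.57 and −0.66, from 8.47 to 12.6 and from 13.3 to 8.34, and at 0.13 in natural IELs with 1 cell per clonotype. Arrdc4, an arrestin family gene, was at −0.59 and 0.98, and in natural IELs at 0.42 with 1 cell per clonotype. Adh1, an alcohol dehydrogenase, was at −1.07 and 0.66, and in natural IELs under 2-fold at −0.87 without the Cd4 clonotypes, −0.81 without the 2 largest old clonotypes and −0.40 with 1 cell per clonotype. With 1 cell per clonotype Tyrobp was at −0.03 and Xcl1 at 0.12.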

How the results depend on the processing

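With 0.5 added before log2 in place of 0.1, the genes past 2-fold between old and young natural IELs were 9 higher and 7 lower, those lower than in young γδ IELs were 8, those higher than in old γδ IELs were 9, and against induced IELs they were 29 higher and 30 lower in the young pool and 41 and 35 in the old. With a mean level of at least 0.5, the counts were 20 and 11 between ages, 11 and 8 against young γδ IELs, 8 higher than in old γδ IELs, 65 and 44 against young and 76 and 45 against old induced IELs; fewer genes were measured there. With 1 cell per clonotype, 19 genes were higher and 8 lower in old. The inverse Simpson index of the old pool was 17.45 without the Cd4 clonotypes and 73.99 without the 2 largest clonotypes, where the largest held 5.65% of members. None of the called ratios of named genes changed sign. Of the ratios under 2-fold, the age ratio changed sign for Klra6 (0.22 without the 2 largest old clonotypes), Xcl1 (0.12 with 1 cell per clonotype) and Arrdc4 (0.42 with 1 cell per clonotype), and the ratio to old γδ IELs for Klra5 (0.36 without the 2 largest, 0.029 without the Cd4 clonotypes, 0.75 with 1 cell per clonotype) and Themis (−0.086 without the 2 largest, −0.49 with 1 cell per clonotype, −0.042 with γδ IELs not selected on Cd8a and Fcer1g); the cause was not tested. Of 121 counts and indices under the alternatives, 99 stayed within 1.5 times and 22 moved, of 1690 ratios of named genes 1377 stayed within the interval, 304 moved and 9 changed sign, and of 60 shares of cells with a UMI 18 stayed and 42 moved, as they depend on the depth kept. No paired analysis was possible because each group was 1 pool. For the same reason no replicate could be left out. Levels under about 0.2 UMIs per 10000, and shares in clonotypes of few members, are limited by depth.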
